A study of Mus musculus with 5 samples.

Results

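The cytosolic ribosomal protein genes were followed in cells of the fetal muscle lineage that had lost Notch1 or Notch2. Members were the rows named Rpl or Rps with a number, together with the stalk genes Rplp0, Rplp1 and Rplp2, the laminin-receptor gene Rpsa and the fusion gene Fau, with a mean of at least 1 RPKM over the libraries. RPKM divides a gene's reads by its length in kilobases and by the size of the library. Numbered pseudogenes and the Rps6k kinases were left out. This gave 84 genes, 50 of the large subunit and 34 of the small subunit, out of 25873 named genes. Of the 87 rows whose name matched, Rpl10l, Rpl3l and Rpl39l fell under the minimum, with means of 0.019, 0.154 and 0.509 RPKM. The lowest members inside it were Rpl5, Rpl17 and Rps12, with means of 23.1, 26.5 and 30.6 RPKM. All 84 members therefore entered the tests. The members Rpl6l, Rpl32l and Rps4l are typed as processed pseudogenes in the GENCODE M21 annotation and were kept because their names match.

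The cells were tdTomato-positive, lineage-negative cells sorted from limb muscle of C57BL/6J mouse fetuses at E16.5. Every group carried Pax7-CreER and the Rosa-tdTomato reporter and received tamoxifen through the mother, at 240 mg per kg for 2 days from E12.5, so tdTomato marks cells in which Cre under Pax7 had acted. Notch1 cKO fetuses also carried floxed Notch1 alleles (1 library), Notch2 cKO fetuses floxed Notch2 alleles (2 libraries), and WT fetuses neither (2 libraries). The library columns are named here by group and tag: WT Em2, WT Em4, Notch1 cKO Em8, Notch2 cKO Em3 and Notch2 cKO Em4. The labels do not say whether libraries of a group came from separate fetuses, so p-values measure the spread between these libraries, which may be technical. Cre under Pax7 leaves receptors on neighbouring cells intact.

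A ribosome joins ribosomal RNA to one copy of most ribosomal proteins, so their genes are expressed at high and coordinated levels in growing cells. Their mRNAs begin with a terminal oligopyrimidine (TOP) tract, a C followed by a run of pyrimidines, through which mTOR signalling and LARP1 control their translation. The acidic stalk proteins recruit elongation factors to the large subunit, and surplus Rpl5 and Rpl11 bind Mdm2 and raise p53. In muscle, ribosome production accompanies growth of progenitors and fibres.

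The start regions of 7 members are shown because the results below turn on these genes: Rps3a1, Rpsa, Rps27 and Rpl28 had the smallest p among members lower in the libraries labelled Notch2 cKO than in WT, Rps6 is the ribosomal protein phosphorylated after mTOR activation, and the rows of Rpl13 and Rpl4 did not follow the other members. With the reads of its near-identical copies added, Rpl13 was lower in Notch2 cKO, as most members were. Each runs from 80 bases before to 20 bases after the RefSeq transcription start (GRCm38.p6). Capitals mark CGGAAG on either strand and any TOP tract that begins within 10 bases of that start. Pyrimidine runs farther away are not marked. The GENCODE M21 start of Rpl4, at 64173375, lies in such an unmarked run.
Rps3a1, chr3:86142649-86142748, minus strand: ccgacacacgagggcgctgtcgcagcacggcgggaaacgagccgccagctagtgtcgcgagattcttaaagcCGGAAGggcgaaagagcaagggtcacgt
Rpsa, chr9:120127686-120127785, plus strand: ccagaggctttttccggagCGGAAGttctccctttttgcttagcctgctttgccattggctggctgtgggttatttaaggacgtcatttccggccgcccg
Rps27, chr3:90213629-90213728, minus strand: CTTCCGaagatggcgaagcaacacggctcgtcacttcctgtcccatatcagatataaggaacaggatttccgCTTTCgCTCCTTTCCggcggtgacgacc
Rpl28, chr7:4792885-4792984, plus strand: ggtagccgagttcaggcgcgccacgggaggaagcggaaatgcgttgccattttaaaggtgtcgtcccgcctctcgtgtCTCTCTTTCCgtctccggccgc
Rps6, chr4:86857348-86857447, minus strand: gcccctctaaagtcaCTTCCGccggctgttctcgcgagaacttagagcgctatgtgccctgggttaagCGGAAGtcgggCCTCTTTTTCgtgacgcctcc
Rpl13, chr8:123102270-123102369, plus strand: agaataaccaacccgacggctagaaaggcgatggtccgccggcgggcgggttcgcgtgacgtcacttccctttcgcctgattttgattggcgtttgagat
Rpl4, chr9:64173307-64173406, plus strand: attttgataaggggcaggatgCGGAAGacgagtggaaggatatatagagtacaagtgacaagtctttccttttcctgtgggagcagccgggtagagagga

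RefSeq start regions, from 250 bases before to 50 bases after the start, were matched for 62 of the 84 members. A gene counted for a motif if any of its start regions held it. A TOP tract was searched on the gene's strand as a C within 10 bases of the start followed by at least 4 pyrimidines. It was present in 59.7% of these members and in 31.5% of all 27025 genes with a start region. CGGAAG, the core bound by GABP and other ETS factors, was present on either strand in 66.1% of members and 18.8% of all these genes. AAGATGGC, the core bound by YY1, was present in 11.3% and 3.19%. GTGGGAA, a core bound by the Notch effector RBPJ, was present in 8.06% of members and 7.25% of all genes with a start region. Among genes that passed the same expression minimum, the shares were 33.5% for the TOP tract, 36.7% for CGGAAG, 5.79% for AAGATGGC and 6.89% for GTGGGAA. These matches describe letters in 1 window and not bound sites.

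Across the libraries the members ranged from 23.1 to 4473 mean RPKM, a 194-fold range, with a median of 270.3 against 9.95 for all 11543 tested genes. A total of 13 members exceeded 1000 RPKM, 51 lay between 100 and 1000, and 20 lay under 100. Rpl41, the smallest ribosomal protein of the large subunit, was the highest, with 7369.6 RPKM in WT Em2, 3694 in WT Em4, 5121 in Notch1 cKO Em8, 3261 in Notch2 cKO Em3 and 2917 in Notch2 cKO Em4. Below, pairs of values are given in the order Em2, Em4 for WT and Em3, Em4 for Notch2 cKO. WT Em2 therefore stood well above the other WT library for this gene. Rps14, a protein of the small-subunit platform, came next at 4181 and 2841 RPKM in WT, 3669 in Notch1 cKO, and 2386 and 2139 in Notch2 cKO. Rpl32 had 3611 and 2088 RPKM in WT, 2857 in Notch1 cKO, and 1888 and 1874 in Notch2 cKO. Both showed the same order of libraries as Rpl41, with WT Em2 first and Notch2 cKO Em4 last. The stalk gene Rplp1 had a mean of 1969 RPKM and Rpl8 of 1693. The 6 highest members together held 33.3% of the summed RPKM of the members.

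**Figure D1:**
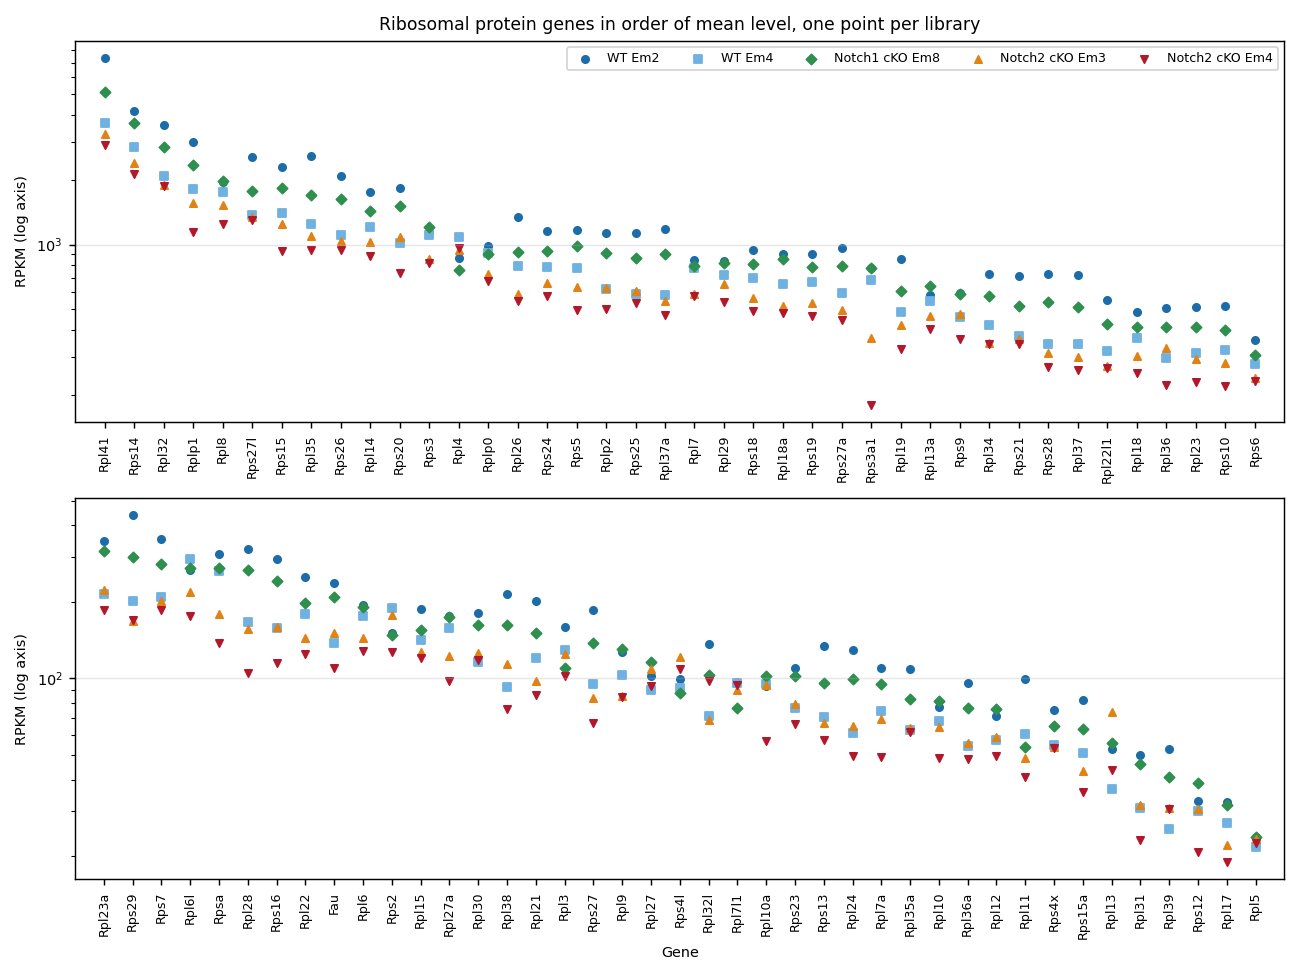
RPKM on a log axis for 81 of the 84 ribosomal protein genes, ordered by mean level, with 1 point per library. WT Em2 is the highest point and Notch2 cKO Em4 the lowest for most genes; Rps3a1 stands out by its low points in both Notch2 cKO libraries.

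Many members have near-identical copies elsewhere in the genome, and members with more copies had lower levels. Copies were annotated transcripts of other genes with at least 95% identity over at least 80% of the coding sequence. The 81 members matched as protein-coding genes had 564 copies, of which 536 were typed as pseudogenes, with a median of 5 and up to 57 for Rpl21. Members with 0 to 2 copies (22 genes) had a median level of 723 RPKM, those with 3 to 9 copies (42 genes) 302 RPKM, and those with 10 or more (17 genes) 141 RPKM. Across the 81 members, Spearman's rho between copy number and level was -0.51, given as a description since these values share libraries. Rpl41, Rpl8 and Rps27l had no copy by this definition.

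**Figure D2:**
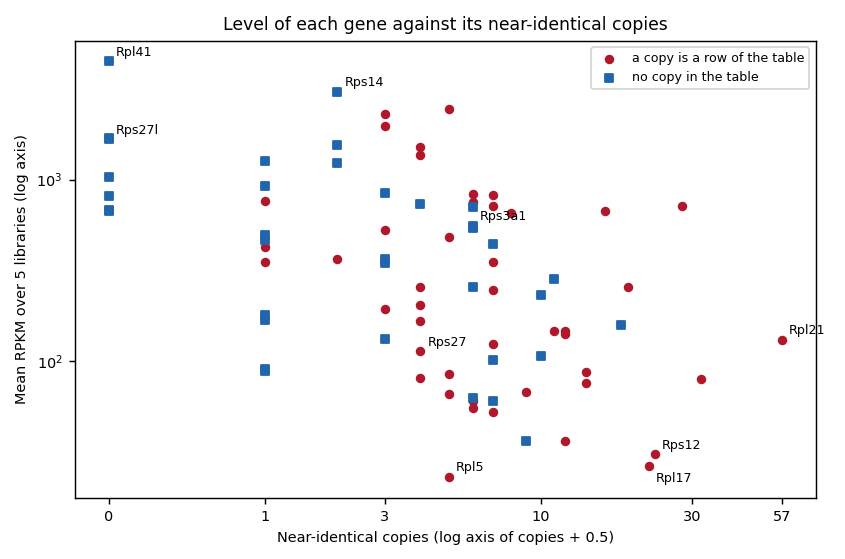
Mean RPKM over the 5 libraries against the number of near-identical copies of the coding sequence, both on log axes, for 81 ribosomal protein genes; colours show whether a copy has a row of its own. Genes with no copy lie between 672 and 4473 RPKM, and Rps12 and Rpl17, with 23 and 22 copies, lie near the bottom.

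Some of the low levels were matched by high levels of a copy. Rps27, whose protein binds zinc in the small subunit, had 186 and 95.2 RPKM in WT, 137 in Notch1 cKO, and 83.4 and 66.7 in Notch2 cKO, while its copy Rps27rt had a mean of 2276 RPKM. The 2 coding sequences matched over all 252 aligned bases. Likewise Rpl24 had a mean of 81.0 RPKM and its copy Gm9385 1259, Rpl17 26.5 and Rpl17-ps10 363, Rps12 30.6 and Rps12-ps15 225, and Rpl13 52.4 and Rpl13-ps6 625. Reads of such genes cannot be split with confidence, because no source used here says how the counting treated them. The first 60 coding bases of Rps27 and a stretch of Rpl37 (coding bases 219 to 278) with its copy Rpl37rt are printed to show how little separates them. The Rpl37 transcripts have 1 mismatch in 291 aligned bases, marked in capitals.
Rps27: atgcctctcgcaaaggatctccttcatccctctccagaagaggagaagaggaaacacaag
Rps27rt: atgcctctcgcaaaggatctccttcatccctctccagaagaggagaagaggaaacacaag
Rpl37: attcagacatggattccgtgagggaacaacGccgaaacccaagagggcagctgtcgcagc
Rpl37rt: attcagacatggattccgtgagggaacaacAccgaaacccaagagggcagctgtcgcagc

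The members were counted from 231 reads upward in every library, within library totals of 20740258 to 28827897 reads. Notch1 was at 2.33 RPKM in Notch1 cKO Em8, with 7.26 and 13.5 in WT, and with 11.8 and 8.39 in Notch2 cKO. Notch2 did not separate its own knockout: 3.35 and 2.03 RPKM in Notch2 cKO, 2.40 and 4.17 in WT and 3.90 in Notch1 cKO. Values per gene do not show the floxed part of a transcript, so these groups are called the libraries labelled Notch2 cKO. The myogenic genes Pax7, Myod1 and Myog were present in every library, Myog at 944 to 1737 RPKM. The myogenic list of 12 genes, with Myog the most abundant, was not level across libraries. It summed to 1766 and 2213 RPKM in WT, 1664 in Notch1 cKO, and 2499 and 2761 in Notch2 cKO. In Notch2 cKO against WT 9 of the 12 were above 0 and 3 below, with 0 called. Of all tested genes 31.9% were below 0, 0.182% were called lower and 0.355% higher. The median of the 12 was 0.22, against 0.14 for all genes. Relative to the gene means and to the median tested gene, the list stood at a median of 0.04 and 0.12 in WT. It stood at -0.06 in Notch1 cKO, and at -0.05 and 0.23 in Notch2 cKO, so not above WT in both. The column names also carry date-like digits of unstated meaning, shared by Notch1 cKO Em8 with Notch2 cKO Em3 and by Notch2 cKO Em4 with WT Em4.

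The libraries kept much the same order for most members. The members summed to 68401 and 43929 RPKM in the WT libraries, 55354 in the Notch1 cKO library, and 38594 and 33431 in those labelled Notch2 cKO. As a share of all RPKM of named genes this was 9.17%, 7.09%, 8.11%, 6.37% and 5.58%. The median member had 433 and 286 RPKM in WT, 313 in Notch1 cKO, and 231 and 186 in Notch2 cKO. Both libraries labelled Notch2 cKO lay at the bottom, and the Notch1 cKO library lay between the WT libraries. WT Em2 was the highest library for 68 of 84 members, against 12.7% of all tested genes, and Notch2 cKO Em4 the lowest for 74, against 19.9%. For 45 members the order was exactly WT Em2, Notch1 cKO, WT Em4, Notch2 cKO Em3, Notch2 cKO Em4.

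Libraries of the same group differed as well. WT Em2 exceeded WT Em4 in 80 of 84 members, with a median ratio of 1.56, and Notch2 cKO Em3 exceeded Notch2 cKO Em4 in 80, with a median ratio of 1.17. The gap between the WT libraries was among the widest for Rpl38 (214 and 92.6 RPKM), Rps29 (437 and 202) and Rps28 (729 and 344). It ran the other way for Rpl4 (864 and 1088 RPKM), Rps2 (151 and 189), Rpl6l (266 and 295) and, by a small amount, Rpl10a (93.4 and 94.9). Rpl7l1, a nucleolar paralogue of Rpl7, was at 96.7 and 96.1 RPKM.

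The first comparison asks how loss of Notch2 in the Pax7 lineage bears on these genes. Members were lower in the libraries labelled Notch2 cKO than in WT, but 1 gene passed the test. Rps3a1, which encodes a small-subunit protein that sits near the mRNA exit and contacts initiation factor eIF3, had 777 and 687 RPKM in WT and 777 in Notch1 cKO, whereas Notch2 cKO had 367 and 180.3. Both low values belong to the libraries labelled Notch2 cKO, and the groups do not overlap. Its log2 fold change, on the log2(RPKM + 1) scale as for all fold changes here, was -1.50 (SE 0.30, n = 2 against 2; limma with Benjamini-Hochberg adjustment over 11543 genes, adjusted p = 0.00221). The call was lost without Notch2 cKO Em4 (adjusted p = 1) and under several other settings given under the dependence on processing. Rps3a1 (ENSMUSG00000028081.6) lies on the minus strand at chr3:86137940-86142702 in GRCm38, and none of its 6 near-identical copies had a row in the table.

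In the same comparison 1 member was called lower, where 0.182% of all tested genes were, and 0 were called higher, where 0.355% of all genes were (limma). At an unadjusted p under 0.05, 35 members were lower and 0 higher, against 2.38% and 5.25% of all genes. Both libraries labelled Notch2 cKO were below both WT libraries for 57 members, against 9.44% of all tested genes, and above both for 1 member, against 28.3%. The log2 fold change was below 0 for 80 members, against 31.9% of all genes. The median member changed by -0.57 and the median tested gene by 0.14. Small-subunit members had a median of -0.62 (33 of 34 below 0) and large-subunit members -0.52 (47 of 50 below 0). With 2 libraries against 2 an exact permutation test of 1 gene cannot go below 0.333.

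Behind Rps3a1 came genes that did not pass. Rpsa, which encodes the small-subunit protein also known as the laminin receptor, had 309.8 and 265 RPKM in WT, 271 in Notch1 cKO, and 179 and 137 in Notch2 cKO. Its groups do not overlap, and its log2 fold change was -0.87 (SE 0.27; limma adjusted p = 0.18). Rps27, given above, differed by -0.83 (SE 0.27, limma adjusted p = 0.222). Rpl28 of the large subunit had 323 and 166 RPKM in WT, 267 in Notch1 cKO, and 156 and 105 in Notch2 cKO (log2 fold change -0.85, SE 0.28, limma adjusted p = 0.226). WT Em4 stood only slightly above Notch2 cKO Em3 for this gene. When reads of its copy Gm10051 were added, the groups overlapped. Rpl11, which can bind Mdm2, had 99.1 and 60.7 RPKM in WT, 53.6 in Notch1 cKO, and 48.6 and 40.9 in Notch2 cKO (log2 fold change -0.79, SE 0.27, limma adjusted p = 0.265).

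A few members did not share the direction. Rpl13 had 52.7 and 36.6 RPKM in WT, 55.5 in Notch1 cKO, and 73.6 and 43.5 in Notch2 cKO. Summed with its copies, however, its family held 726 and 599.6 RPM (reads per 1000000 library reads) in WT, 703 in Notch1 cKO, and 574 and 449.8 in Notch2 cKO, so that the order of the groups turned. The member itself held 6.69% of these reads. Rps4l had 99.1 and 91.5 RPKM in WT, 87.3 in Notch1 cKO, and 122 and 109 in Notch2 cKO; it was the 1 member with both libraries labelled Notch2 cKO above both WT libraries. Rpl27 had 103 and 89.8 RPKM in WT and 108 and 93.0 in Notch2 cKO. Rpl5, which also binds Mdm2, had 23.7 and 21.8 RPKM in WT, 23.8 in Notch1 cKO, and 23.5 and 22.6 in Notch2 cKO. With its copy in the table, the Rpl5 family held 69.4 and 64.5 RPM in WT, 65.3 in Notch1 cKO, and 63.3 and 62.0 in Notch2 cKO, so that both libraries labelled Notch2 cKO fell just below both WT libraries. None of these passed the test in either direction.

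Adding the reads of near-identical copies kept the order for most genes. Of the 81 matched members, 45 had at least 1 copy with a row, and for 27 of these the member held the smaller share of the summed reads. Rpl7 is among the 27, at 44.5%, on a recovered length shorter than its coding sequence, so its share may be understated. Without the copies, 56 of the 81 had both libraries labelled Notch2 cKO below both WT libraries, and with them 64 did. Rps27 with Rps27rt gave 1464 and 728 RPM in WT, 1166 in Notch1 cKO, and 654 and 569.9 in Notch2 cKO. This summing was chosen after the data were seen.

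**Figure D3:**
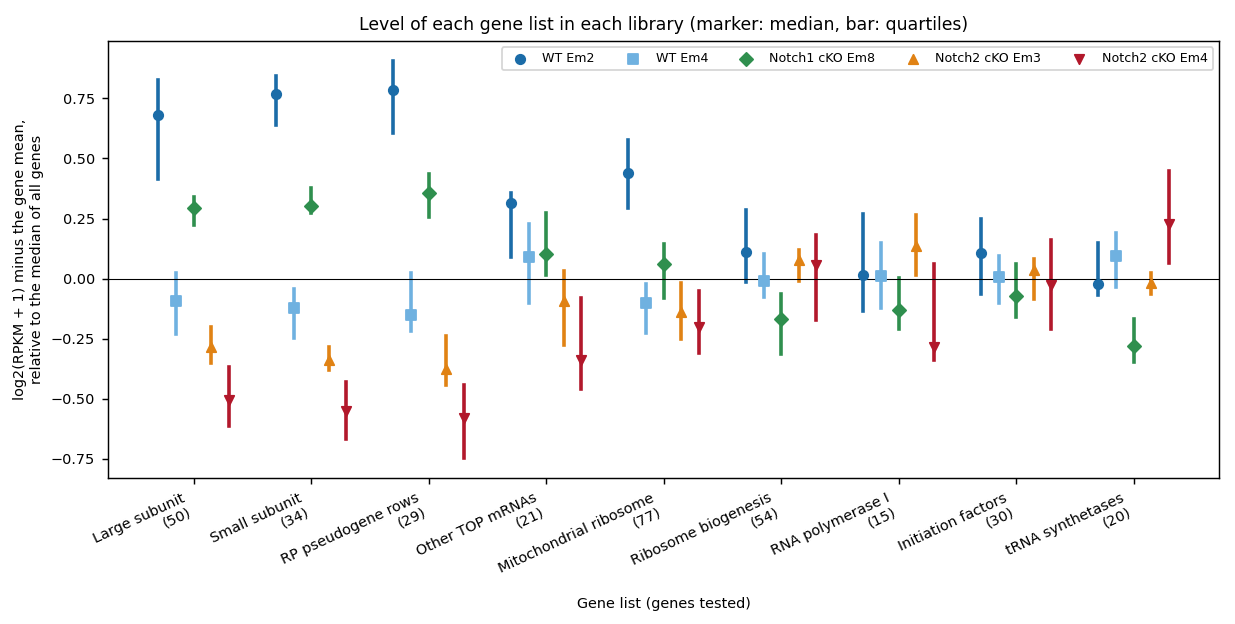
Median (marker) and quartiles (bar) of log2(RPKM + 1) minus the gene mean, relative to the median of all tested genes, for gene lists in each library. Large- and small-subunit genes and ribosomal pseudogene rows run from WT Em2 at the top to Notch2 cKO Em4 at the bottom, and other TOP mRNAs and mitochondrial ribosomal protein genes show the same order of medians over narrower ranges, while biogenesis factors, RNA polymerase I genes, initiation factors and tRNA synthetases do not show that order.

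These counts moved with the WT libraries. Without WT Em2 the median member differed by -0.26, and without WT Em4 by -0.88. Without WT Em4, 43 members were called lower, among 235 of all tested genes, and without Notch2 cKO Em4, 0 members were. Among the libraries that share digits, Notch2 cKO Em4 minus WT Em4 gave a median of -0.41 over the members, with 77 of 84 below 0 against 47.2% of all tested genes. Notch2 cKO Em3 minus Notch1 cKO Em8 gave -0.50, with 78 below 0 against 35.6%. For the median tested gene these differences were 0.03 and 0.13. The comparison of Notch2 cKO Em3 with WT Em4, which do not share digits, was smaller, at -0.15 with 61 members below 0 against 45.1% of all genes, whose median was 0.03. Digits and group cannot be told apart for WT Em2.

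Short genes outside the members moved in the same direction as the members, whose median length was 693.5 bases against 2617 for all tested genes. These other genes include ribosomal pseudogene rows and further near-identical copies of members, which were not taken out. The 29 tested pseudogene rows had a median length of 456 bases and a median of -0.57 in Notch2 cKO against WT. Their part in the values of the other genes was not tested. In the libraries labelled Notch2 cKO against WT, members under 500 bases had a median of -0.62 and other genes of that length -0.28. Rps18 and Rpl7 were placed in this band by recovered lengths of 262 and 467 bases, shorter than their coding sequences. From 500 to under 1000 bases the medians were -0.53 for 48 members and -0.20 for 968 other genes. From 1000 to under 2000 bases they were -0.44 for 14 members and 0.06 for 2703 other genes. Groups did not overlap, in the lower direction, for 30 of the 48 members of 500 to under 1000 bases and for 36.3% of other genes of that length. After each library's trend against gene length was removed, the median member was at -0.34 and the median gene at 0.00, 0 members were called, and 50 members lay lower with no overlap, as did 17.2% of all tested genes. WT Em2 and WT Em4 themselves differed along gene length (Spearman's rho of their difference with length -0.48 over all genes tested). The part of length in the result beyond these values was not tested.

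**Figure D4:**
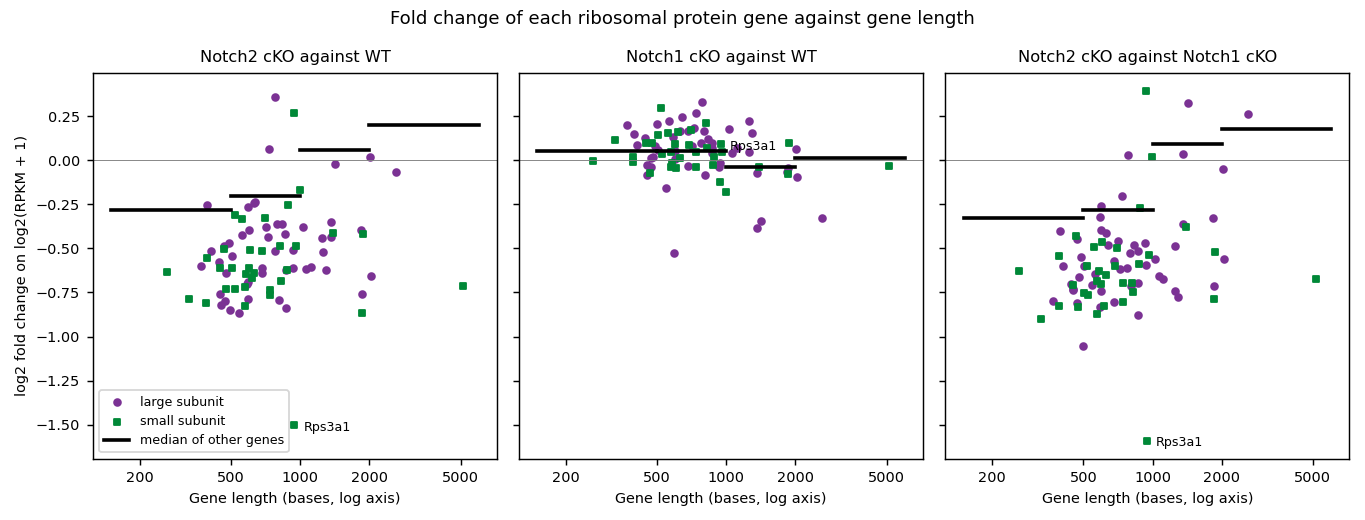
Log2 fold change of each ribosomal protein gene on the log2(RPKM + 1) scale against gene length on a log axis, for 3 comparisons; black bars give the median of all other tested genes in 4 length bands. In the 2 comparisons with Notch2 cKO most members lie below the bar of their band and Rps3a1 lies lowest; in Notch1 cKO against WT they scatter around 0.

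Markers of other cells also differed between the libraries, not in the order of the members. The erythroid list (12 of 15 markers in the table, none at 0 in all libraries) summed to 985 and 1228 RPKM in WT, 1752 in Notch1 cKO, and 526 and 454 in Notch2 cKO. Between the WT libraries it ran opposite to the members. Of the 8 tested genes of the list, 3 were called lower in the libraries labelled Notch2 cKO than in WT, against 0.182% of all tested genes. Its most abundant gene, Hba-a2, was at 431 and 478 RPKM in WT and 193 and 165 in Notch2 cKO. Ter119, a red-cell antigen, was among the stains used in the sort. The tendon and cartilage list (16 of 16 markers, none at 0 in all libraries) summed to 254 RPKM in Notch2 cKO Em4 and to between 55.6 and 86.7 in the other libraries. The haematopoietic list (15 of 15) summed to 63.9 RPKM in Notch2 cKO Em4 and to between 17.4 and 30.0 elsewhere, and the endothelial list (10 of 10) to between 21.9 and 41.1. The fibroblast list (18 of 18) also ran opposite to the members between the WT libraries, with 257 and 422 RPKM in WT, 546 in Notch1 cKO, and 381 and 545 in Notch2 cKO. Of its 14 tested genes, 11 were above 0 and 3 below in Notch2 cKO against WT (median 0.64, 0 called). Of all tested genes 31.9% were below 0 there, with a median of 0.14, and 0.355% were called higher. In Notch1 cKO against WT all 14 were above 0 (median 0.72). Of all tested genes 48.5% were below 0 in that comparison, with a median of 0.01. Genes induced by cell dissociation moved as well. Of 27 tested, 23 were above 0 and 4 below in the libraries labelled Notch2 cKO against WT, with a median of 0.46. Of all tested genes 31.9% were below 0, with a median of 0.14. Among the 27, 2 were called higher, the heat-shock genes Hspa1a and Hspa1b, against 0.355% of all tested genes. The dissociation list summed to 2999 and 3573 RPKM in WT, 3912 in Notch1 cKO, and 5360.0 and 3688 in Notch2 cKO. Hspa1b was high in 1 library, with 3.16 and 4.73 RPKM in WT, 9.23 in Notch1 cKO, and 165 and 6.54 in Notch2 cKO. The part of all these lists in the level of the ribosomal protein genes was not tested. In bulk RNA, fewer cells of a type and less RNA per cell cannot be told apart.

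The second comparison asks the same for Notch1, with 1 library against 2 and thus no replicate check on the Notch1 side. The Notch1 cKO library lay within the WT libraries for most members. No member was called lower or higher (0 and 0, limma), where 0.026% and 0.0433% of all tested genes were, and 0 members in either direction had an unadjusted p under 0.05, against 0.494% of all genes lower and 1.35% higher. The Notch1 cKO library was below both WT libraries for 7 members, against 26.1% of all tested genes, and above both for 12, against 24.3%. The median member changed by 0.05, against 0.01 for all genes. Members below both WT libraries included Rpl11, Rpl3, which forms part of the peptidyl transferase centre, with 159.9 and 129 RPKM in WT and 109.9 in Notch1 cKO, and Rpl4, with 864 and 1088 in WT and 762 in Notch1 cKO. Members above both included Rpl13, Rpl27 and Rps12, the last with 32.9 and 30.2 RPKM in WT and 38.8 in Notch1 cKO. With the reads of their copies added, Rpl11, Rpl3, Rpl13 and Rps12 no longer lay outside the WT libraries, whereas Rpl4 and Rpl27, which have no copy with a row, still did.

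This result turned with the WT library used. Against WT Em2 alone 71 members were lower in Notch1 cKO, as were 38.8% of all tested genes, and against WT Em4 alone 76 were higher, as were 37.1%, with median differences of -0.29 and 0.36.

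The third comparison set the libraries labelled Notch2 cKO against Notch1 cKO. Rps3a1 was again the 1 member called lower, where 0.208% of all genes were, and 0 were called higher, where 0.277% were. Its log2 fold change was -1.59 (SE 0.37, n = 2 against 1; limma adjusted p = 0.0185), and the call was lost when either library labelled Notch2 cKO was dropped, at a limma adjusted p of 0.0531 without Em3, where the log2 fold change was -2.10, and of 1 without Em4, where it was -1.08. The Notch1 cKO side is 1 library, assumed in the fit to vary like the libraries of the other groups, so this call has no replicate check there. Both libraries labelled Notch2 cKO were below the Notch1 cKO library for 78 members, against 25.2% of all genes, and above it for 3 members, Rpl4, Rpl7l1 and Rps4l, against 47.7%. At an unadjusted p under 0.05, 22 members were lower and 0 higher, against 2.82% and 5.85% of all genes. The log2 fold change was below 0 for 78 members, against 38.2% of all genes, with a median of -0.61 against 0.12 for all genes. Next in order were Rpl28 (log2 fold change -1.05, SE 0.34, limma adjusted p = 0.196), Rps27, Rps28 and Rps16, none of which passed. Rps16 had 241 RPKM in Notch1 cKO and 159 and 115 in Notch2 cKO. The comparisons share libraries, so their values are not independent of each other.

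**Figure D5:**
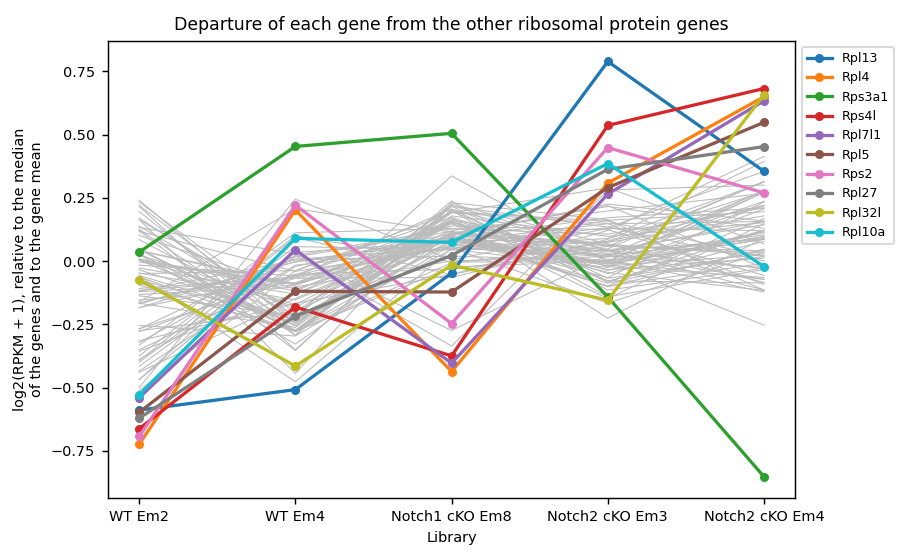
Log2(RPKM + 1) of each ribosomal protein gene in each library, relative to the median of the 84 genes and to the gene's own mean; the 10 genes of widest range are coloured and the others grey. Rps3a1 runs from 0.50 in Notch1 cKO Em8 to -0.85 in Notch2 cKO Em4, while Rpl4, Rpl13 and Rps4l rise relative to the other genes in Notch2 cKO.

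Taking the median member of each library as the reference showed which genes kept step. Rpl13, Rpl4, Rps3a1 and Rps4l had the widest ranges over the 5 libraries, from 1.34 to 1.38 on the log2 scale. The Rpl13 row held 6.69% of the reads of its family. Rps4l is typed as a processed pseudogene and was not matched for copies. Rps3a1 was at 0.04 and 0.45 in WT and 0.50 in Notch1 cKO, but at -0.14 and -0.85 in the libraries labelled Notch2 cKO. The values in Notch2 cKO Em3 and WT Em2 lay close together on this scale, so the relative drop was large in 1 of the 2 libraries labelled Notch2 cKO. Rpl4, which lines the exit tunnel, was at -0.72 and 0.20 in WT, -0.44 in Notch1 cKO, and 0.31 and 0.65 in Notch2 cKO. Rpl4, Rpl5, Rpl7l1 and Rps2 shared low values in WT Em2 and positive values in both libraries labelled Notch2 cKO. This was not particular to them, since Rpl13, Rps4l, Rpl27 and further members did the same. Rpl27, for example, was at -0.62 in WT Em2 and at 0.36 and 0.45 in Notch2 cKO. At the other end Rps15a, Rps10 and Rpl21 were among those that kept step most closely, with ranges of 0.18, 0.18 and 0.19.

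The stalk genes followed the other members. Rplp0, the base of the stalk, had 987 and 916 RPKM in WT, 902 in Notch1 cKO, and 731 and 675 in Notch2 cKO. Rplp1 had 2987 and 1806 RPKM in WT, 2345 in Notch1 cKO, and 1556 and 1149 in Notch2 cKO. Rplp2 had 1137 and 620.5 RPKM in WT, 916 in Notch1 cKO, and 631 and 501 in Notch2 cKO, so WT Em4 lay just below Notch2 cKO Em3. The stalk proteins are present in equal copy numbers as Rplp1 and Rplp2 pairs, whereas the mRNA levels differed. None passed the test.

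Paralogues and their parents stood at different levels. Rps27l, a p53-responsive paralogue, had 2559 and 1369 RPKM in WT, 1783 in Notch1 cKO, and 1340.4 and 1304 in Notch2 cKO, well above the row of Rps27 but beside the copy Rps27rt. Rpl22l1 had 551 and 320.3 RPKM in WT, 426 in Notch1 cKO, and 273 and 265 in Notch2 cKO. Its parent Rpl22 was lower in each library, at 249.9 and 180.0, 199, and 145 and 124 RPKM. Rpl7l1 was far below Rpl7, which had 849 and 782 RPKM in WT, 794 in Notch1 cKO, and 587 and 576 in Notch2 cKO. Rps4x, the X-linked parent of Rps4l, had 74.8 and 54.7 RPKM in WT, 64.7 in Notch1 cKO, and 53.8 and 53.2 in Notch2 cKO. Rpl10 and Rpl39, parents of the Rpl10l and Rpl39l rows under the minimum, had means of 67.9 and 36.2 RPKM. Fau, which joins a ubiquitin-like protein to a small-subunit protein, had 237 and 138 RPKM in WT, 209 in Notch1 cKO, and 150.3 and 109.8 in Notch2 cKO, where WT Em4 lay below Notch2 cKO Em3.

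Members tied to disease or signalling lay among the rest. The 19 members whose mutation causes Diamond-Blackfan anaemia, a failure of red-cell production, had a median change of -0.64 in the libraries labelled Notch2 cKO against WT, with 17 below 0 and 0 called. Of all 84 members 80 lay below 0 and 1 was called lower. Of all tested genes 31.9% lay below 0 and 0.182% were called lower. Rps19, the gene of this list best known from patients, had 903 and 670.5 RPKM in WT, 784 in Notch1 cKO, and 538 and 464 in Notch2 cKO. Rps6 had 359 and 278 RPKM in WT, 308 in Notch1 cKO, and 240.2 and 233 in Notch2 cKO. Groups did not overlap for either gene, and neither passed the test.

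Genes that serve ribosomes without being part of them did not form the same pattern. In the libraries labelled Notch2 cKO against WT, 0 of 54 tested ribosome biogenesis factors, 0 of 15 RNA polymerase I genes, 0 of 30 initiation factors, 0 of 20 tRNA synthetases, 0 of 22 regulators of TOP mRNAs and ribosome production, and 0 of 13 genes of ribosome quality control and the p53 checkpoint were called in either direction. Of all tested genes, 0.182% were called lower and 0.355% higher. The median changes of these lists were 0.14, 0.10, 0.12, 0.21, 0.13 and 0.11, near the 0.14 of all genes. Their genes are longer than the members, with list medians of 2249 to 3490 bases against 693.5. Genes of 2000 bases and over outside the members had a median of 0.20. The part of length in this contrast was not tested. Nmd3, which exports the large subunit from the nucleus, had 38.4 and 40.6 RPKM in WT, 28.0 in Notch1 cKO, and 54.3 and 62.8 in Notch2 cKO. Mycn, a driver of ribosome production, had 2.95 and 4.74 RPKM in WT, 3.02 in Notch1 cKO, and 8.43 and 8.04 in Notch2 cKO (limma adjusted p = 0.265). Both had higher values in the libraries labelled Notch2 cKO and neither passed the test. In Notch1 cKO against WT, 50 of 54 biogenesis factors and 19 of 20 tRNA synthetases had fold changes below 0, with medians of -0.20 and -0.27 and 0 called, where 48.5% of all genes lay below 0.

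Other mRNAs known to begin with a TOP tract lay between. Of 21 tested, 18 were below 0 in the libraries labelled Notch2 cKO against WT, where 31.9% of all tested genes were, with a median of -0.26 and 0 called. Eef1a1, the main elongation factor, had 1826 and 2508 RPKM in WT, 2068 in Notch1 cKO, and 1602 and 1528 in Notch2 cKO. Tpt1, a translationally controlled protein, went the other way, at 131 and 74.7 RPKM in WT, 158 in Notch1 cKO, and 166 and 152 in Notch2 cKO. Eef2, the translocation factor, had 128 and 302 RPKM in WT, 184 in Notch1 cKO, and 199 and 191 in Notch2 cKO. For Eef1a1 and Eef2, unlike most members, WT Em2 was below WT Em4.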

How the data were processed

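The values are RPKM as the authors deposited them, in 1 table of 27179 rows by 5 libraries. Per the submitters' processing notes, bcl2fastq 2.20.0 and the build mm10 were used; no source used here gives the aligner, the counter or the annotation. Per the labels, the libraries came from a SMART-Seq low-input kit and paired-end sequencing. Rows without a gene name (1306, with 2.19% to 3.07% of RPKM) were left out. Whole reads were recovered from the deposited RPKM values: gene lengths came out whole within 0.02 bases for 97.7% of 7429 genes, where 4% would by chance, and the recovered reads summed to between 99.2% and 99.3% of the library totals. The shortest length that gave whole reads was kept, so a length and its reads can be too small. Rps18 and Rpl7 came out at 262 and 467 bases, below their coding sequences of 456 and 838 bases.

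Differences were tested on log2(RPKM + 1) in limma 3.58.1 under R 4.3.3, by lmFit and trended eBayes over all 5 libraries, for 11543 genes of at least 1 mean RPKM, two-sided, with Benjamini-Hochberg adjustment and a threshold of 0.05. The fit has 2 residual degrees of freedom and leans on a prior estimated from all genes. It was tested on simulated data, where it called unchanged genes more often than the threshold allows. The simulated libraries had no shift of a group of genes within 1 library. The simulation therefore cannot say how often members would be called through such a shift. The members and lists were chosen with earlier results of these data known.

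Named members were the 6 of highest and the lowest in level, those called or of smallest p in each direction, those of widest and narrowest gap between the WT libraries, and the stalk, fusion and paralogue members with their parents, with Rps19, Rps6, Rpl5 and Rpl11; of the other lists, genes among the 2 of smallest p and well-known members. Eef1a1, Eef2 and the genes named by their range relative to the other members or by their copies were chosen after their values were seen. Copies were found with BLAST 2.17.0 in GENCODE M21 transcripts (GRCm38, the mm10 assembly), and start regions came from RefSeq (GRCm38.p6). Results of 3 members are not reported here by name.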

Additional observations from a re-analysis of the deposited data

How the results depend on the processing

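No paired analysis was possible because the columns carry no replicate number. The direction of the median member held under each alternative run for the libraries labelled Notch2 cKO against WT and against Notch1 cKO. In Notch2 cKO against WT the count of members called lower was 0 with no filter on low values, with median-of-ratios scaling, with quantile normalization and with the length trend removed, and leaving out 1 library at a time gave 0 to 43. The count higher with no overlap was 0 with median-of-ratios scaling, 4 after rescaling to the same sum, 3 with the length trend removed, 0 with reads summed with copies, and 1 to 6 when leaving out 1 library. In Notch1 cKO against WT the count higher with no overlap was 2 with median-of-ratios scaling and 12 to 76 when leaving out 1 library; the count lower was 13 with the length trend removed, 4 with copies and 7 to 71 when leaving out 1 library. In Notch2 cKO against Notch1 cKO the count called lower was 0 with no filter, median-of-ratios scaling, quantile normalization or the length trend removed, 3 with only these groups in the fit, and 0 to 4 when leaving out 1 library; the count higher with no overlap was 5 after rescaling to the same sum, 5 with the length trend removed, and 3 to 6 when leaving out 1 library. The cause of these changes was not tested. For Rps3a1 the limma adjusted p in Notch2 cKO against WT was 0.73 with no filter, 0.0561 with median-of-ratios scaling, 0.196 with quantile normalization and 0.3 with the length trend removed, and ran from 0.000171 to 1 over all settings, with fold changes from -2.01 to -0.99; limma voom on the recovered reads also called it. Scaling moved the median of all genes from 0.14 to 0.00 (median-of-ratios), 0.29 (same sum) and 0.00 (quantile), and the members stood -0.71 from it as deposited and -0.73, -0.68 and -0.36 under these. Over all genes the split of calls, 21 lower and 41 higher, became 12 and 14, 2 and 27, and 1 and 3. No member had under 231 reads in any library; the limits are the number of libraries and the uncertain placing of reads among copies.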

Other observations

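Relatives of the cytosolic ribosomal protein genes carried values of their own. The mitochondrial ribosomal protein genes are nuclear genes for the ribosome of the mitochondrion. In the libraries labelled Notch2 cKO against WT 59 of 77 tested were below 0, against 31.9% of all tested genes, with a median of -0.20 and 0 called. Mrps21 had 879 and 449.6 RPKM in WT, 633 in Notch1 cKO, and 399.6 and 368 in Notch2 cKO, so WT Em2 stood alone at the top. Their summed level was 13445 and 9600.4 RPKM in WT, 10862 in Notch1 cKO, and 9233 and 8958 in Notch2 cKO.

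Rows named as ribosomal pseudogenes followed the members: 28 of 29 tested were below 0 in Notch2 cKO against WT, against 31.9% of all tested genes, with a median of -0.57. Among the 29, 2 were called lower, against 0.182% of all tested genes. Rps12-ps11 (113 and 90.7 RPKM in WT, 91.5 in Notch1 cKO, 51.4 and 41.7 in Notch2 cKO; limma adjusted p = 0.0204) and Rps12-ps12 (21.0 and 11.6 in WT, 13.6 in Notch1 cKO, 7.73 and 4.95 in Notch2 cKO; limma adjusted p = 0.0382) were called lower. The Rps12 row itself did not separate the groups. With its 8 copies in the table the Rps12 family held 265 and 174 RPM (reads per 1000000 library reads) in WT, 229.9 in Notch1 cKO, and 133 and 93.0 in Notch2 cKO.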
